A study of Schizosaccharomyces pombe with 12 samples.

Results

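The 47 features examined here are the ribosomal RNA (rRNA) genes of chromosomes I, II and III of the fission yeast Schizosaccharomyces pombe, chosen from the deposited annotation of a modified genome as every feature whose name begins with SPRRNA. They were 47 of 7002 features in the annotation, 6970 of which lay on these 3 chromosomes. A further 2 rRNA features on the mitochondrial genome fell outside that rule. The study made 12 libraries in 6 groups of 2 by ChIP-exo, in which the DNA recovered with a protein or hybrid by an antibody is cut back by an exonuclease before sequencing. All groups carried a system, named DSB-PpoI in the labels, with a target of the homing endonuclease I-PpoI placed in the genome, and all were grown at 30 °C. In cells lacking Rnh1 and Rnh201 (Rnh1del-Rnh201del), the ribonucleases H that remove RNA-DNA hybrids, hybrids were recovered with the S9.6 antibody with I-PpoI induction ON or OFF. Ssb2, part of RPA, which coats single-stranded DNA, was recovered through a Flag tag. It was recovered from otherwise wild-type cells with I-PpoI induction ON or OFF, and from Rnh1del-Rnh201del cells with induction ON. A last group, also with I-PpoI induction ON, was labelled as overexpressing Rnh1, which was under the nmt1 promoter (pNmt1::Rnh1). The signal of the libraries was not analysed here and their depth is unknown. The values below are properties of the annotation and of the reference genome, have no replicates, and bear on where such signal could be assigned.

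As background, ribosomes are built on rRNA. RNA polymerase I makes 18S, 5.8S and 28S rRNA as a single precursor from repeated units, which in S. pombe lie in long arrays at both ends of chromosome III. RNA polymerase III makes 5S rRNA, the RNA of the large subunit that binds ribosomal proteins L5 and L11 before assembly, from an internal promoter recognised by TFIIIA and, in fission yeast, a TATA element upstream, and it stops at a run of T. In S. pombe the 5S genes are scattered over the genome rather than placed inside the repeats.

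Both kinds of arrangement were seen in the annotation. By the product that RefSeq names for the matched gene, 36 of the 47 features were 5S genes, 5 were 18S, 3 were 5.8S and 3 were 28S genes. All 47 matched a RefSeq rRNA gene on the same strand with the same end, once chromosome II positions were shifted by the 1842 bases of the insert, and 46 of the deposited starts lay 1 base before the RefSeq start. A division at 200 bases did not separate the 5S genes from the others. The 33 features shorter than 200 bases held 30 5S genes and the 3 5.8S genes, which are 166 bases long as deposited. The 14 longer features held the 8 18S and 28S genes and 6 5S genes with long annotated intervals, SPRRNA.29 (242 bases), SPRRNA.31 (247), SPRRNA.32 (441), SPRRNA.37 (221), SPRRNA.03 (230) and SPRRNA.04 (210). The class by product was adopted after these lengths were seen, and values of the length classes are given beside it for the main counts.

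A 119-base core was common to the 5S genes and is shown here because within it most copies were the same or differed in few bases. Sequences are 5′ to 3′ from the RefSeq assembly ASM294v3, whose chromosome II lacks the insert. The first is the unchanged core, as in SPRRNA.10 (I:149658-149776, plus strand). The next are the copies with 3 or 2 substitutions at single positions, SPRRNA.12 (I:912230-912348, minus strand), SPRRNA.37 (II:4161619-4161737, minus strand), SPRRNA.11 (I:456527-456645, plus strand) and SPRRNA.15 (I:3547900-3548018, minus strand), with each changed base in capitals.
SPRRNA.10: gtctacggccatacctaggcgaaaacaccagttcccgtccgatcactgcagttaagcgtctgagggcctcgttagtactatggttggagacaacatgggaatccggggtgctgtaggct
SPRRNA.12: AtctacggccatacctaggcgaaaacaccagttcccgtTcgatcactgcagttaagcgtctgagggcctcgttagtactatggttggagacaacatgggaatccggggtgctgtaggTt
SPRRNA.37: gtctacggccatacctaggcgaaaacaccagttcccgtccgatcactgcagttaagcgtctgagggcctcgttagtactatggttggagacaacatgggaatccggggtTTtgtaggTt
SPRRNA.11: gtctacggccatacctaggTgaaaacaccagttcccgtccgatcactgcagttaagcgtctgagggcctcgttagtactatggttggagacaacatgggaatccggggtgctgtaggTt
SPRRNA.15: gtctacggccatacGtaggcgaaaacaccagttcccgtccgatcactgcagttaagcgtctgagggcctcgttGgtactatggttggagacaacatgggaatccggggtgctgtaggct

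The core aligned without gaps in 34 of the 36 genes, and 23 carried it unchanged. Of the 11 others, 7 had 1 substitution, 2 had 2 and 2 had 3, which gave 10 distinct core sequences. Counted from 1 at the 5′ end of the core, substitutions fell at 12 of 119 positions. The most frequent were C20T, in SPRRNA.11, SPRRNA.04 and SPRRNA.05, and C118T, in SPRRNA.11, SPRRNA.12 and SPRRNA.37. T12C was shared by SPRRNA.30 and SPRRNA.40. Each of the others was seen in a single gene: G1A and C39T in SPRRNA.12, C15G and A74G in SPRRNA.15, C40T in SPRRNA.35, C68T in SPRRNA.53, G110T and C111T in SPRRNA.37, and T119C in SPRRNA.18. Of the 17 substitutions counted over genes, 15 were transitions and 10 of these were C-to-T. The core was GC-rich for this genome, at 54.6% G or C against 36.1% over the 3 chromosomes.

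SPRRNA.54 and SPRRNA.41, both on the minus strand of chromosome II and 74.5 kb apart, did not align without gaps. SPRRNA.54 differed from the core by 28 single-base edits (76.5% identity) and SPRRNA.41 by 20 (83.2%). RefSeq marks SPRRNA.41 as partial, and its annotated interval, 81 bases as deposited, began 35 bases inside the stretch that matched the core. Their RefSeq intervals are shown because no other 5S gene departed from the core by more than 3 bases. The lower case marks no feature.
SPRRNA.54: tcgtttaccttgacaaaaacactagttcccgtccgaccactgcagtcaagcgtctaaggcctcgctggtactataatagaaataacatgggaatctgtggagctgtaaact
SPRRNA.41: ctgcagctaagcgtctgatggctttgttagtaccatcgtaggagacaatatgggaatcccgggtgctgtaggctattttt

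A search of the reference with the core (blastn) returned 37 matches. Of these, 36 lay in the 36 annotated 5S genes and 1 lay elsewhere, at II:2948319-2948399 of ASM294v3 on the plus strand, in the long non-coding RNA SPNCRNA.1565, over 81 aligned bases at 79.0% identity. The search thus returned no full-length core beyond the annotated genes.

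The annotated ends of the 5S genes varied far more than their sequence. Only 7 genes were annotated as exactly the 119-base core. Among the 34 aligned genes, bases before the core were included in 23 and bases after it in 23. Over all 34, those without added bases included, the medians were 28 bases before and 11.5 after. The maxima were 200 (SPRRNA.32) and 121 (SPRRNA.31 and SPRRNA.32). SPRRNA.53 and SPRRNA.55 were annotated from the 5th base of the core. As a result, identity of the whole annotated interval was rarer than identity of the core: the most common full interval was shared by 6 genes.

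**Figure D1:**
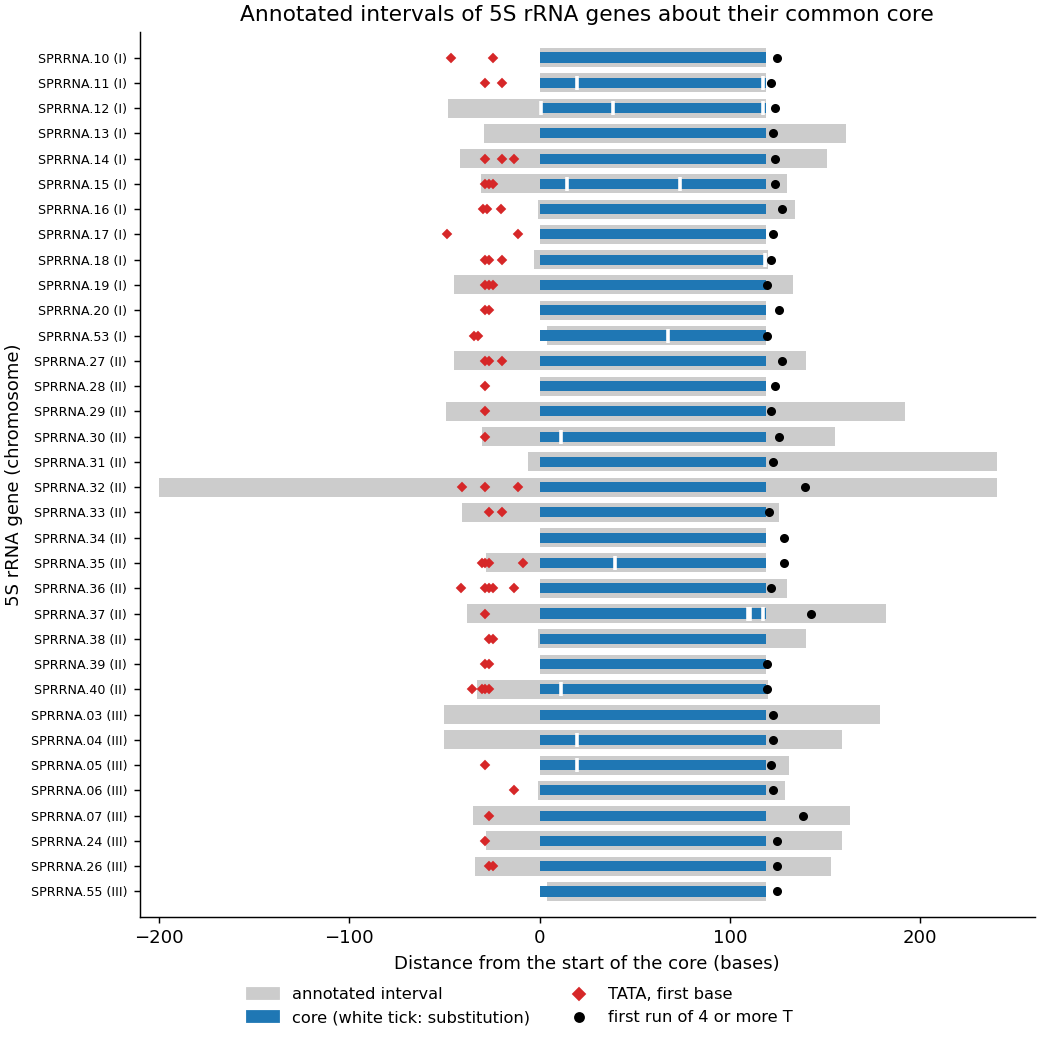
Annotated intervals (grey) of the 34 5S genes whose 119-base core (blue) aligned without gaps, on an axis of bases from the start of the core, with substitutions as white ticks, the first base of each TATA in the 50 bases before it as a red diamond and the first T run in the 30 bases after it as a black dot. The grey intervals reached up to 200 bases before and 121 bases after the core, while 18 genes had a diamond 29 bases before it.

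Sequence next to the core was compared once the genes had been aligned on it. The motif TATA was searched, in the direction of the gene only, in the 50 bases before the core and TTTT in the 30 bases after it. TATA was present in 27 of 34 genes (79.4%, 95% Wilson interval 63.2 to 89.7). The 60 matches, overlapping ones included, began 9 to 49 bases before the core, and the most frequent start was 29 bases before it, in 18 genes, followed by 27 bases, in 13. In 23 genes a match began 27 to 30 bases before the core. Of the 8 genes with a single match, 6 had it at 29 bases. The 7 genes without it were SPRRNA.12, SPRRNA.13, SPRRNA.31, SPRRNA.34, SPRRNA.55, SPRRNA.03 and SPRRNA.04. TTTT was present after the core in 33 of 34 genes (97.1%, 85.1 to 99.5), starting a median of 5 bases after it and within 10 bases in 30 genes. The exception was SPRRNA.38. The first run was 4 to 9 T long, with a median of 5. The base directly before the core was T in 28 genes and C in 6.

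Upstream sequences of 4 genes are shown for the placement of TATA (capitals) at 29 bases in SPRRNA.20 (I:4240969-4241018, minus strand), SPRRNA.28 (II:464477-464526, plus strand) and SPRRNA.29 (II:520253-520302, plus strand), and for its absence in SPRRNA.03 (III:1370153-1370202, minus strand). Each ends at the base before the core.
SPRRNA.20: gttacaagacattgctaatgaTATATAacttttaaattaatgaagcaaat
SPRRNA.28: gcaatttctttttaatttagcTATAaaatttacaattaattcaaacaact
SPRRNA.29: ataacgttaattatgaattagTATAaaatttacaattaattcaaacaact
SPRRNA.03: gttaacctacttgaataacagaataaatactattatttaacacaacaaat

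The 30 bases after the core are shown for SPRRNA.30 (II:569270-569299, plus strand), which had the longest first T run (capitals), for SPRRNA.20 (I:4240820-4240849, minus strand), and for SPRRNA.38 (II:4210351-4210380, minus strand), which had none.
SPRRNA.30: cctttcTTTTTTTTTcggaatattatttta
SPRRNA.20: tcttgcTTTTTTTgctagaaataatacatt
SPRRNA.38: ccttctttattattgctatttaattactac

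The same motifs were searched from the annotated gene ends of other classes. Shares were similar for tRNA genes, the other large class of RNA polymerase III genes, and lower for protein-coding genes. For tRNA genes the shares were 133 of 171 for TATA (77.8%, 71.0 to 83.4) and 164 of 171 for TTTT (95.9%, 91.8 to 98.0). Of 5113 RefSeq protein-coding genes, 33.8% held TATA in the 50 bases before the gene and 34.4% held TTTT in the 30 bases after it. Over all 12606 genes of the 3 chromosomes the shares were 32.3% and 31.8%. The 50 bases before the 5S core had a median A or T content of 80%, against 76% before tRNA genes and 62% before protein-coding genes, and a 4-base motif of A and T is met more often in AT-rich sequence. When the windows were taken from the annotated gene ends instead, the 5S shares were 16 of 36 for TATA (44.4%) and 21 of 36 for TTTT (58.3%). Among the features under 200 bases they were 18 of 33 and 22 of 33. These shares were below those of tRNA genes. Windows from the annotated ends of the features under 200 bases were the planned ones, and those from the core were chosen after seeing the data.

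Beyond these short motifs most pairs of 5S genes shared only short runs of bases next to the core. Over the 561 pairs of the 34 aligned genes, the run of identical bases reaching outward from the core had a median of 1 base before it and 0 bases after it. Base by base, median identity was 44% over the 50 bases before the core and 43.3% over the 30 after it. Runs stop at the first difference and can miss likeness. SPRRNA.35 and SPRRNA.40 had a run of 1 base before the core but 80% identity over the 50 bases. SPRRNA.24 and SPRRNA.55 had 90% identity over the 30 bases after it. SPRRNA.03 and SPRRNA.04 had the longest run before the core, 138 bases, and 23 identical bases after it. These 2 genes lay 104.2 kb apart on chromosome III and their cores differed at 1 position (C20T). SPRRNA.28 and SPRRNA.29, 55.8 kb apart on chromosome II, shared 29 bases before the core, which begin with the TATA shown above. SPRRNA.31 on chromosome II and SPRRNA.06 on chromosome III shared 27 bases after it. In 6 pairs 10 or more bases were shared before the core, and in 22 pairs after it.

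The 5S genes were spread over all 3 chromosomes. Chromosome I held 12 of them (2.15 per Mb), chromosome II 16 (3.52 per Mb) and chromosome III 8 (3.26 per Mb). By share, chromosome II held 44.4% of the 5S genes in 36.1% of the length, and chromosome I held 33.3% of them in 44.4% of the length. The 33 features under 200 bases fell 12, 12 and 9 on the 3 chromosomes. By strand, 21 5S genes lay on the plus and 15 on the minus strand (58.3% plus, 42.2 to 72.9), and of the features under 200 bases 19 and 14 (57.6% plus, 40.8 to 72.8). Both intervals include equal shares. On chromosome II the 8 leftmost 5S genes, from SPRRNA.28 to SPRRNA.39, were all on the plus strand, and of the 8 to their right 2 were on the plus and 6 on the minus strand. That split was picked out after the strands were seen.

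Each 5S gene is placed by its first deposited base on the modified genome. On chromosome I they were, from left to right, SPRRNA.10 at 149657, SPRRNA.11 at 456526, SPRRNA.12 at 912229, SPRRNA.53 at 1563478, SPRRNA.13 at 2976789, SPRRNA.14 at 3165353, SPRRNA.15 at 3547888, SPRRNA.16 at 3634369, SPRRNA.17 at 3830379, SPRRNA.18 at 3891661, SPRRNA.19 at 4184340 and SPRRNA.20 at 4240849. On chromosome II they were SPRRNA.28 at 464526, SPRRNA.29 at 520253, SPRRNA.30 at 569120, SPRRNA.31 at 783252, SPRRNA.27 at 1199881, SPRRNA.32 at 1408226, SPRRNA.33 at 1506173, SPRRNA.39 at 2034251, SPRRNA.34 at 2263212, SPRRNA.35 at 2324546, SPRRNA.40 at 2444541, SPRRNA.54 at 3098809, SPRRNA.41 at 3173407, SPRRNA.36 at 3940419, SPRRNA.37 at 4163397 and SPRRNA.38 at 4212201, of which the first 5 lie left of the insert. Those of chromosome III were SPRRNA.24 at 523288, SPRRNA.55 at 853313, SPRRNA.26 at 926107, SPRRNA.03 at 1369973, SPRRNA.04 at 1474218, SPRRNA.05 at 1690944, SPRRNA.06 at 1702122 and SPRRNA.07 at 2308121. All 36 lay inward of the 11 genes at the ends of chromosome III or on the other chromosomes.

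No 5S gene lay within 10 kb of another, though the number that would do so if placed at random was not computed. The 33 gaps between successive 5S genes on a chromosome had a median of 213.9 kb and ran from 11046 bases, between SPRRNA.05 and SPRRNA.06 on chromosome III, to 1413 kb. None was under 10 kb and 3 were under 50 kb, the others being SPRRNA.37 to SPRRNA.38 and SPRRNA.29 to SPRRNA.30, both 48.6 kb. No 5S gene lay within 100 kb of a chromosome end, in windows that make up only 4.77% of the length of the 3 chromosomes. Within 200 kb, which makes up 9.54% of the length, there were 2 5S genes. The nearest were SPRRNA.07, 144.6 kb from the right end of chromosome III, and SPRRNA.10, 149.7 kb from the left end of chromosome I. The 3 features under 200 bases that did lie within 100 kb were the 5.8S genes.

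**Figure D2:**
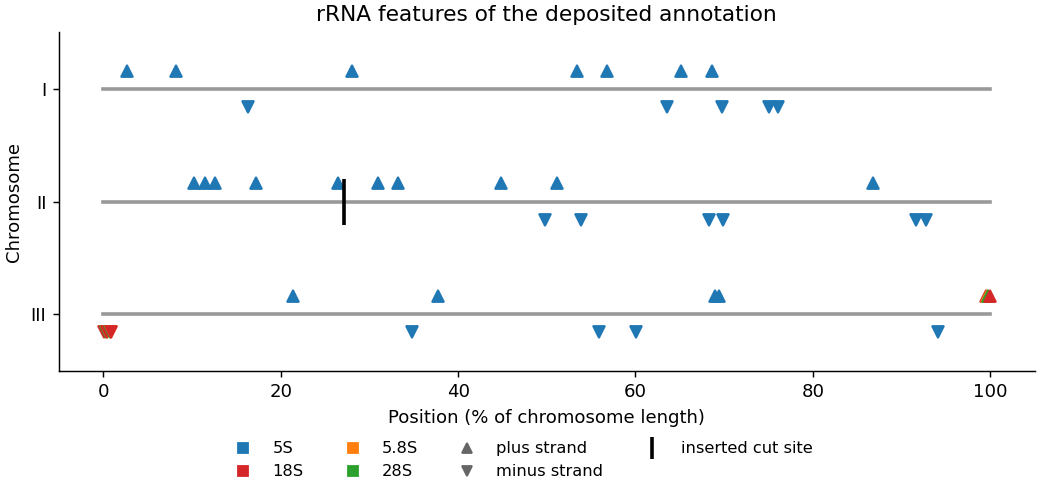
Positions of the 47 rRNA features as percent of chromosome length, with plus-strand features above and minus-strand features below each line, coloured by product, and the inserted I-PpoI site as a black bar. The 36 5S genes were spread over all 3 chromosomes, and the 11 18S, 5.8S and 28S genes lay at the ends of chromosome III.

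The 5S genes were placed against protein-coding features, taken as features named SPA, SPB or SPC without RNA. The gap to the nearest had a median of 353.5 bases (range 0 to 846), and all 36 genes lay under 1 kb from one. The annotation holds 5150 such features, and the share of all positions that lie this close to one was not computed. Among the features under 200 bases the median was 390 bases, with a highest value of 18290 bases for the 5.8S gene SPRRNA.50, and among the 14 longer features it was 4814 bases. For comparison, the 171 tRNA features had a median gap of 483 bases and reached 38364 bases, and 60 features named as small nucleolar or small nuclear RNAs had a median of 91.5 bases and reached 804. The nearest protein-coding feature was on the same strand for 17 of the 5S genes and on the opposite strand for 19. The farthest 5S genes were SPRRNA.14, 846 bases from tif211, which encodes the alpha subunit of translation factor eIF2, and SPRRNA.20, 842 bases from dal2, which encodes allantoicase. SPRRNA.30 lay 700 bases from tre1, SPRRNA.31 lay 672 bases from sim3, which encodes a chaperone of the centromeric histone CENP-A, and SPRRNA.33 lay 671 bases from shy1, a cytochrome c oxidase assembly factor. The closest without shared bases were SPRRNA.40, 67 bases from ucp3, which encodes a GTPase-activating protein, and SPRRNA.32, 91 bases from rar1, which encodes methionine-tRNA ligase. The other 5S genes of 200 bases or more were SPRRNA.29, 607 bases from rlp1, a RecA family ATPase gene, SPRRNA.37, 292 bases from sam1, which encodes S-adenosylmethionine synthetase, SPRRNA.03, 179 bases from SPCC338.03c, and SPRRNA.04, 309 bases from SPCC11E10.09c.

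**Figure D3:**
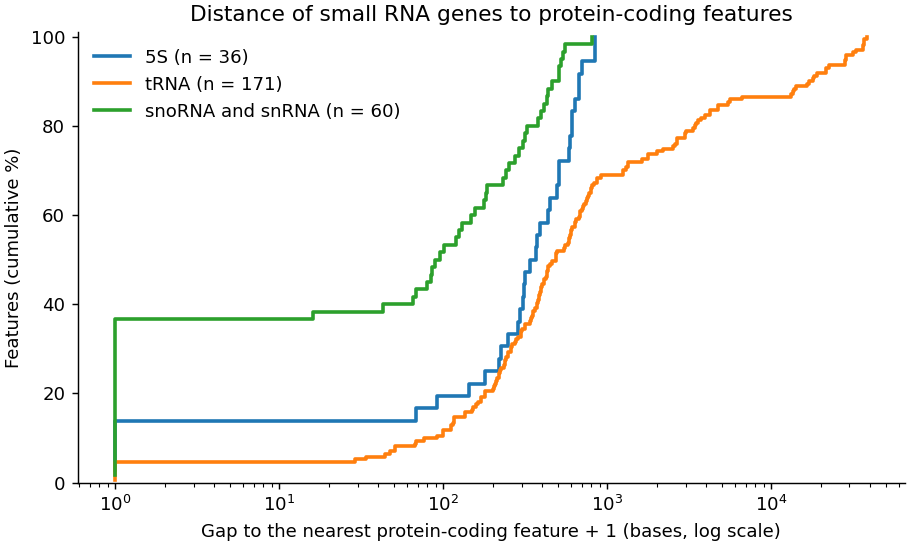
Cumulative percent of 5S (n = 36), tRNA (n = 171) and small nucleolar and nuclear RNA (n = 60) features against the gap to the nearest protein-coding feature, plus 1 base, on a log axis. All 5S genes lay within 846 bases of a protein-coding feature and all small nucleolar and nuclear RNAs within 804. The tRNA curve extended to 38364 bases.

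In the deposited annotation 5 of the 36 5S genes shared bases with a protein-coding feature (13.9%, 6.08 to 28.7), as did 8 of the 171 tRNA features (4.68%) and 22 of the 60 small nucleolar and nuclear RNAs (36.7%). All 5 were among the 33 features under 200 bases (15.2%), and 0 of the 14 longer features did so. SPRRNA.10 lay wholly within the interval of hsp3102, a glyoxylase gene on the opposite strand, with 120 shared bases. The other 4 were on the strand of the gene they overlapped. SPRRNA.13 shared 191 bases with mfc1, a transporter gene. SPRRNA.15 shared 162 bases with pan3, which encodes a subunit of a poly(A) ribonuclease. SPRRNA.35 shared 142 of its 148 bases with SPBC24C6.03, a gene for proline-tRNA ligase. SPRRNA.07 shared 155 of its 199 bases with agp3, an amino acid transporter gene. None of the 5 shared a base with a RefSeq coding sequence. In RefSeq all 5 genes lay outside the shorter gene intervals given there, at 722 bases from hsp3102, 831 from mfc1, 571 from pan3, 86 from SPBC24C6.03 and 2132 from agp3. The overlap is therefore a property of the deposited, longer gene intervals. In addition, SPRRNA.29 shared 90 bases with SPNCRNA.1366, a non-coding RNA on the opposite strand.

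tRNA genes were frequent neighbours. A tRNA feature lay under 1 kb from 10 of the 36 5S genes (27.8%, 15.8 to 44.0), whereas 199 of 5150 protein-coding features (3.86%) had one that close, as did 63 of 171 tRNA features (36.8%) with another tRNA. By length, 9 of the 33 features under 200 bases (27.3%) and 1 of the 14 longer ones (7.14%) had a tRNA that close. The tRNA was on the same strand for 9 of the 10 5S genes and on the opposite strand for SPRRNA.04. Of the 63 tRNA features with another tRNA that close, 30 had it on the same strand. It was upstream of 7 and downstream of 3. The closest were 149 bases upstream of SPRRNA.06 and 175 bases upstream of SPRRNA.39, both genes for asparagine tRNA, and 182 bases upstream of SPRRNA.26, a gene for arginine tRNA.

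The genes that make and assemble rRNA were also placed against the 5S genes. Of 24 listed genes, covering TFIIIA, TFIIIC, TFIIIB, the repressor Maf1, the La protein, the 5S ribonucleoprotein and RNA polymerase I factors, all 24 were found in the annotation. None of the 24 was the protein-coding feature nearest to a 5S gene, a place held by 36 of all 5150 protein-coding features (0.699%). Their gap to the nearest 5S gene had a median of 166.5 kb (range 0.434 to 888.3 kb), against 118.0 kb over all 5150 protein-coding features. The closest was sfc6, a TFIIIC subunit gene, at 434 bases from SPRRNA.34, followed by rpf2, an assembly factor of the 5S ribonucleoprotein, 6.5 kb from SPRRNA.18, and rpa2, an RNA polymerase I subunit gene, 20.5 kb from SPRRNA.39.

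The 18S, 5.8S and 28S genes formed 2 blocks at the ends of chromosome III, which here are the ends of the reference sequence. At the left end, on the minus strand, 7 genes filled the first 23.13 kb: a part of an 18S gene at the very end (SPRRNA.42), then SPRRNA.47 (28S), SPRRNA.50 (5.8S), SPRRNA.43 (18S), SPRRNA.48 (28S), SPRRNA.51 (5.8S) and SPRRNA.44 (18S). At the right end, on the plus strand, 4 genes filled the last 11.89 kb. Their order was SPRRNA.46 (18S), SPRRNA.52 (5.8S), SPRRNA.49 (28S) and a part of an 18S gene (SPRRNA.45) that ended with the reference sequence. The strands place transcription toward the chromosome end on both sides. RefSeq marks SPRRNA.42 and SPRRNA.45 as partial, with 1390 and 1001 bases of the 1842 of a full 18S gene. The reference sequence breaks off inside these genes, so the block lengths are those of the reference and not of the arrays. The annotation thus held 2 complete sets of all 3 genes on the left and 1 on the right.

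**Figure D4:**
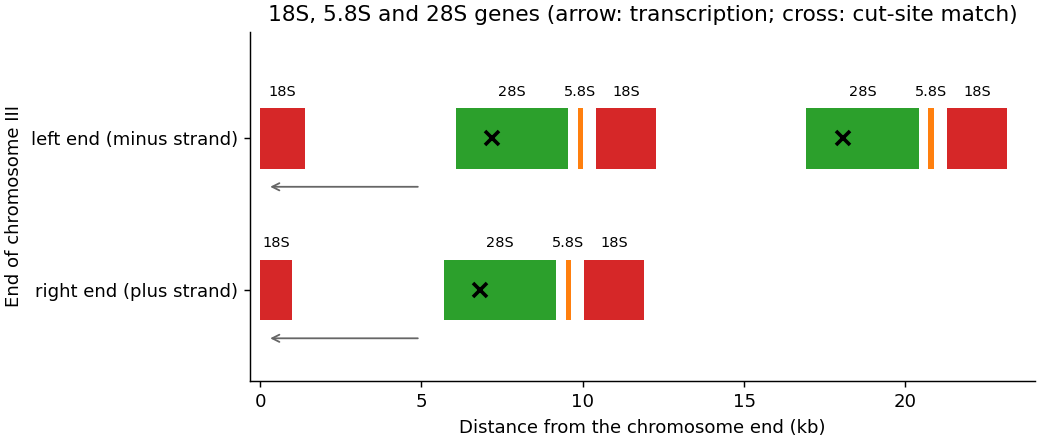
The 18S, 5.8S and 28S genes at the left and right ends of chromosome III against distance from that end in kb, with the direction of transcription as an arrow and the match to the I-PpoI recognition site in each 28S gene as a cross. The left block reached 23.13 kb and the right block 11.89 kb from the end of the reference sequence.

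Copies of the repeated genes were identical in the reference. The 3 28S genes (3485 bases each), the 3 5.8S genes (165 bases each) and the 3 full 18S genes (1842 bases each) did not differ in any base, and SPRRNA.42 differed from the others only at an unread base (T847N, counted from the start of 18S). Start to start, the repeat measured 10870 bases at the left end and 10889 bases at the right end. The spacers between 18S and 5.8S (412 bases) and between 5.8S and 28S (300 bases) had the same length at both ends and differed between the ends by 2 edits each. The spacer between 28S and the next 18S measured 4666 bases at the left end and 4685 at the right end, with 42 edits between the ends (99.1% identity). Between the repeats of the left end all spacers were identical. The 5.8S sequence is shown as the shortest of the genes that occur only at the ends (III:9842-10006, minus strand, identical in the other copies).
SPRRNA.50: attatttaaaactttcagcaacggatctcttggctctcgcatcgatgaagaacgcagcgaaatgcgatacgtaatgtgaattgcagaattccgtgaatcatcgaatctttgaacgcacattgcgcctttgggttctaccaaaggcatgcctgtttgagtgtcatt

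The nearest protein-coding features of the repeated genes were few. SPCP20C8.01c, of unknown function, was nearest to all 7 genes of the left block, at 5166 bases from SPRRNA.44 to 26906 bases from SPRRNA.42. SPCC569.01c, also uncharacterised, was nearest to all 4 of the right block, at 4462 bases from SPRRNA.46 to 15351 bases from SPRRNA.45. None of the 11 genes lay under 1 kb from a protein-coding feature, in contrast to all 36 5S genes.

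The recognition site of I-PpoI, an enzyme whose natural target is the large-subunit rRNA gene, occupied bases 2351 to 2365 of each 28S gene. The window of 95 bases around it was identical in all 3 and is shown from SPRRNA.47 (III:7137-7231, minus strand), with the 15-base site in capitals.
SPRRNA.47: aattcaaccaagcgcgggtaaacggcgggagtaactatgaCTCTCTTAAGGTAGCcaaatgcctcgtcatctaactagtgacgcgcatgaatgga

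The inserted site lay on another chromosome, at II:1231089-1231103 of the modified genome. The 5S gene nearest to the inserted site was SPRRNA.27, 31.0 kb to its left, with 14 protein-coding features between. The next were SPRRNA.32 at 177.1 kb and SPRRNA.33 at 275.1 kb, both to its right. The labels do not give the state of the 28S sites in the strains, and the number of repeats in the strains was not analysed here.

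A stretch of 28S sequence also lay outside the end blocks. A search with the 18S, 5.8S and 28S genes returned the 11 annotated genes and 1 further match, at III:814809-814940 on the plus strand, 132 bases that matched bases 1285 to 1416 of the 28S gene with the single substitution C1310A (99.2% identity). It lay in no deposited feature and no RefSeq gene, 100 bases from fil1 (SPCC1393.08), and 38.4 kb from the nearest 5S gene, SPRRNA.55. It does not reach the I-PpoI site. The stretch is shown with the changed base in capitals.
28S-like stretch: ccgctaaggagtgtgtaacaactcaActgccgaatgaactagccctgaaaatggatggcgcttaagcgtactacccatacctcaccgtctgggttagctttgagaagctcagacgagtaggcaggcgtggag

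Because copies repeat, the annotation does not by itself fix where a short read from an rRNA gene is placed. The labels do not give the read length of the libraries, so windows of 36, 50 and 100 bases were counted over the whole reference, both strands included. In 28 of the 34 aligned 5S cores no 36-base window occurred only once, and the most frequent window occurred 33 times. The 6 exceptions each had a substitution found in no other aligned gene: of 84 windows, 1 was unique in SPRRNA.18, 10 in SPRRNA.37, 36 in SPRRNA.35, 36 in SPRRNA.53, 37 in SPRRNA.12 and 51 in SPRRNA.15. SPRRNA.54 and SPRRNA.41 were unique throughout. At 100 bases, 27 of the 34 cores still had no unique window.

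Flanks restored uniqueness. Fewer than 50% of the 34 genes had a unique 36-base window where the window began from 3 bases before the first base of the core to 94 bases after it. With 100-base windows the corresponding stretch ended 25 bases after it. Over the annotated intervals, which include differing lengths of flank, the share of unique 36-base windows in the 36 5S genes had a median of 27.2% (range 0 to 100), and 10 genes had none. In the 18S, 5.8S and 28S genes no window of 36, 50 or 100 bases was unique. At 36 bases, 134 of 171 tRNA genes had no unique window, while 4845 of 5113 protein-coding genes were unique throughout.

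**Figure D5:**
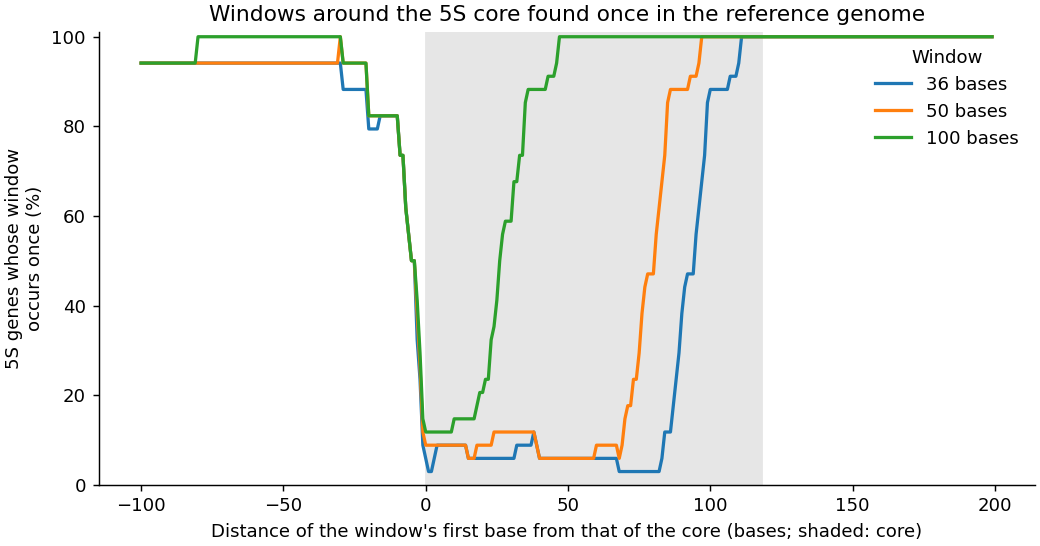
Percent of the 34 aligned 5S genes whose window of 36, 50 or 100 bases occurs once in the reference, against the distance of the window's first base from that of the core, which is shaded. The 36-base curve stayed under 50% from 3 bases before to 94 bases after the first base of the core and rose on both sides.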

How the data were processed

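The labels describe 12 ChIP-exo samples in 6 groups of 2, and the 2 files used hold no value of any sample. Reads were aligned with Bowtie2 to a genome derived from ASM294v2, per the submitters' processing notes. Its version and the other steps were not given in the sources used. The deposited BED annotation gives each feature's interval, name, strand and score. The score, as deposited by the authors, is 0 in all 7002 features and was not used. The deposited insert sequence has 1842 bases.

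Members and lists were chosen with earlier results of these data known. Features were matched by name to the RefSeq annotation of ASM294v3, which gave products, sequences and coding intervals. Sequences, search matches, spacers, window counts and gaps given for RefSeq genes are in ASM294v3. Positions of features and gaps between deposited features are in the modified genome. Starts count from 1, and chromosome ends are those of the reference sequence. Gaps count the bases between features, and overlap meant at least 1 shared base. The named features were all members, the nearest protein-coding feature of each longer unit and of the 5 nearest and 5 farthest features under 200 bases, overlapped features, and 24 listed genes. The neighbours of SPRRNA.30, SPRRNA.33 and SPRRNA.40, and fil1, were named after their values were seen. The 5S core is the most common full interval, placed in each gene by alignment (edlib 1.3.9.post1), and further copies were sought with BLAST+ 2.17.0. The 95% intervals of shares are Wilson intervals and take each feature as independent. No test was run. The functions recovered what simulated data were made with. The scripts ran under Python 3.11.15 with numpy 2.4.6 and matplotlib 3.10.9.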

Additional observations from a re-analysis of the deposited data

How the results depend on the processing

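The choices of size limit, gene models, end windows and motif windows were varied over 13 results and 34 alternatives, 10 of them chosen after seeing the data. In 24 the value stayed within 1.5 times the one reported, and in 10 it did not. Short features numbered 33 with the limit of 200 bases and 18 with a limit of 150 bases. The median gap of short features to the nearest protein-coding feature was 390 bases, and 709 bases when only RefSeq coding sequence was counted. The 5 overlaps with a protein-coding feature fell to 0 with RefSeq protein-coding genes and to 0 with coding sequence only. Short features near another one numbered 0 at 10 kb and 4 at 50 kb. The median distance of the longer units to the chromosome end was 19106 bases, and 8051.5 bases with the 18S and 28S genes only, since 6 of the longer features are 5S genes. The most common sequence was shared by 6 short copies over the whole interval, and by 23 over the 74 bases that every interval covers. Over the core it was shared by 23 of all 5S genes, 19 of them short. Short features within 100 kb of an end numbered 3, within 200 kb 5, and 0 once the 5S genes were taken by product. Reading the deposited interval from the reference was not run, because the reference is another build. No paired analysis was possible because neither file gives a measurement per sample. For the same reason depth is unknown, and nothing here shows how the libraries' reads fell on these genes. The reference holds few of the repeats, so copy number was not examined.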
